A study of Danio rerio with 8 samples.

Results

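Keratins, claudins and the genes of epithelial cell junctions were followed in whole zebrafish embryos homozygous for the G177A allele of osgep. The 81 rows of the count table whose symbol names a keratin (krt, cyt1), a claudin (cldn), ictacalcin (icn), epcam, cdh1, tp63, envoplakin (evpl), periplakin (ppl), desmoplakin (dsp), a plakophilin (pkp) or a zonula occludens protein (tjp) were taken, out of 36351 rows in all. They comprised 23 keratin rows, 37 claudin rows and 21 others, and 71 of the 81 passed the filter on low counts. The groups were 4 pools of MZ osgep G177A/G177A embryos, in which the allele was homozygous and the maternal supply carried it too (mutant pools), and 4 pools of wild-type embryos, all whole embryos at 26 hours post fertilisation (hpf). The number of embryos per pool and the crosses behind each pool are not given in the labels, so p-values reflect only how these pools spread. osgep encodes the catalytic enzyme of KEOPS, a complex that modifies tRNAs that read codons beginning with A.

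The skin of the zebrafish embryo has an outer periderm, which descends from the enveloping layer of the blastula, and a basal layer of keratinocytes that depends on the transcription factor Tp63. Keratins assemble as pairs of a type I and a type II protein into filaments that desmosomes link from cell to cell. Claudins are the membrane proteins that seal tight junctions, and different epithelia, vessels and glia use different claudins. Members were placed in classes by this background (basal epidermis, periderm, epidermis of both layers, simple epithelium, internal epithelia, nervous system and vessels, junction plaque). In pools of whole embryos, fewer cells of a type and less RNA per cell cannot be told apart.

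The libraries held 21290942 to 27675104 expected counts. Levels are CPM, counts scaled to a common library total with factors from the trimmed mean of M values (TMM), listed for mutant pools 1 to 4 and then wild-type pools 1 to 4. The transcript of osgep measured 13.8, 8.38, 10.8 and 10.0 CPM in the mutant pools, against 16.1, 20.4, 17.1 and 23.2 CPM in the wild-type pools, lower in every mutant pool (log2 fold change −0.84, SE 0.18, adjusted p = 0.00826), and the table does not separate alleles. Of 8 marker genes chosen for the tissues of a whole embryo, all had counts in every pool and 2 passed, both lower in the mutant, the muscle actin gene actc1b (log2 fold change −1.94, SE 0.30, adjusted p = 0.00174) and the lens gene crybb1 (log2 fold change −4.55, SE 0.24, adjusted p = 6.94e-06). The neuronal gene elavl3 was lower in every mutant pool but did not pass (log2 fold change −0.29, SE 0.11, adjusted p = 0.0779). It passed as lower in DESeq2's Wald test (adjusted p = 0.0274) and with the share of ribosomal proteins as a covariate (0.0105). Ribosomal protein genes took 16.0% of the counts in mutant pool 1 and 7.84% to 10.8% in the other mutant pools, against 8.64% in wild-type pool 4 and 11.4% to 15.5% in the other wild-type pools. Wild-type pool 4 had the highest level of the wild-type pools for 50 of the 71 tested members, against 8212 of all 22467 tested genes. Counts without it are given beside the results they touch.

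Across the 71 tested members, 19 rose and 9 fell in the mutant at an adjusted p under 0.05 (edgeR's quasi-likelihood test, adjusted by Benjamini-Hochberg over all genes). That is 39.4% of the members, against a background of 32.2% of the 22467 tested genes called in either direction. The 19 that rose are 26.8% of the members, against 15.8% of all tested genes called higher, and the 9 that fell are 12.7%, against 16.3% called lower. The same 15.8% and 16.3% are the background for the counts of each class and list below in this main fit. Counts under other settings have other backgrounds, and the number of genes called in all is given with them. The mutant and wild-type pools did not overlap in 24 of the 71 members, where 33.7% of all tested genes showed no overlap. The median log2 fold change of the members (mutant minus wild type) was 0.27, beside 0.004 over all tested genes. Claudins rose in 12 of 32 tested rows and fell in 3, whereas keratins rose in 4 of 19 and fell in 5. Among the other 20 tested members 3 rose (epcam, cdh1, evplb) and 1 fell (icn). Without wild-type pool 4, 26 members rose and 8 fell, and without wild-type pool 1, 2 or 3 in turn the risers numbered 11, 12 and 11. Over all genes, 7225 were called in the main fit and 7769 without wild-type pool 4. Without wild-type pool 1, 2 or 3 in turn 5890, 5310 and 5387 were called.

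**Figure D1:**
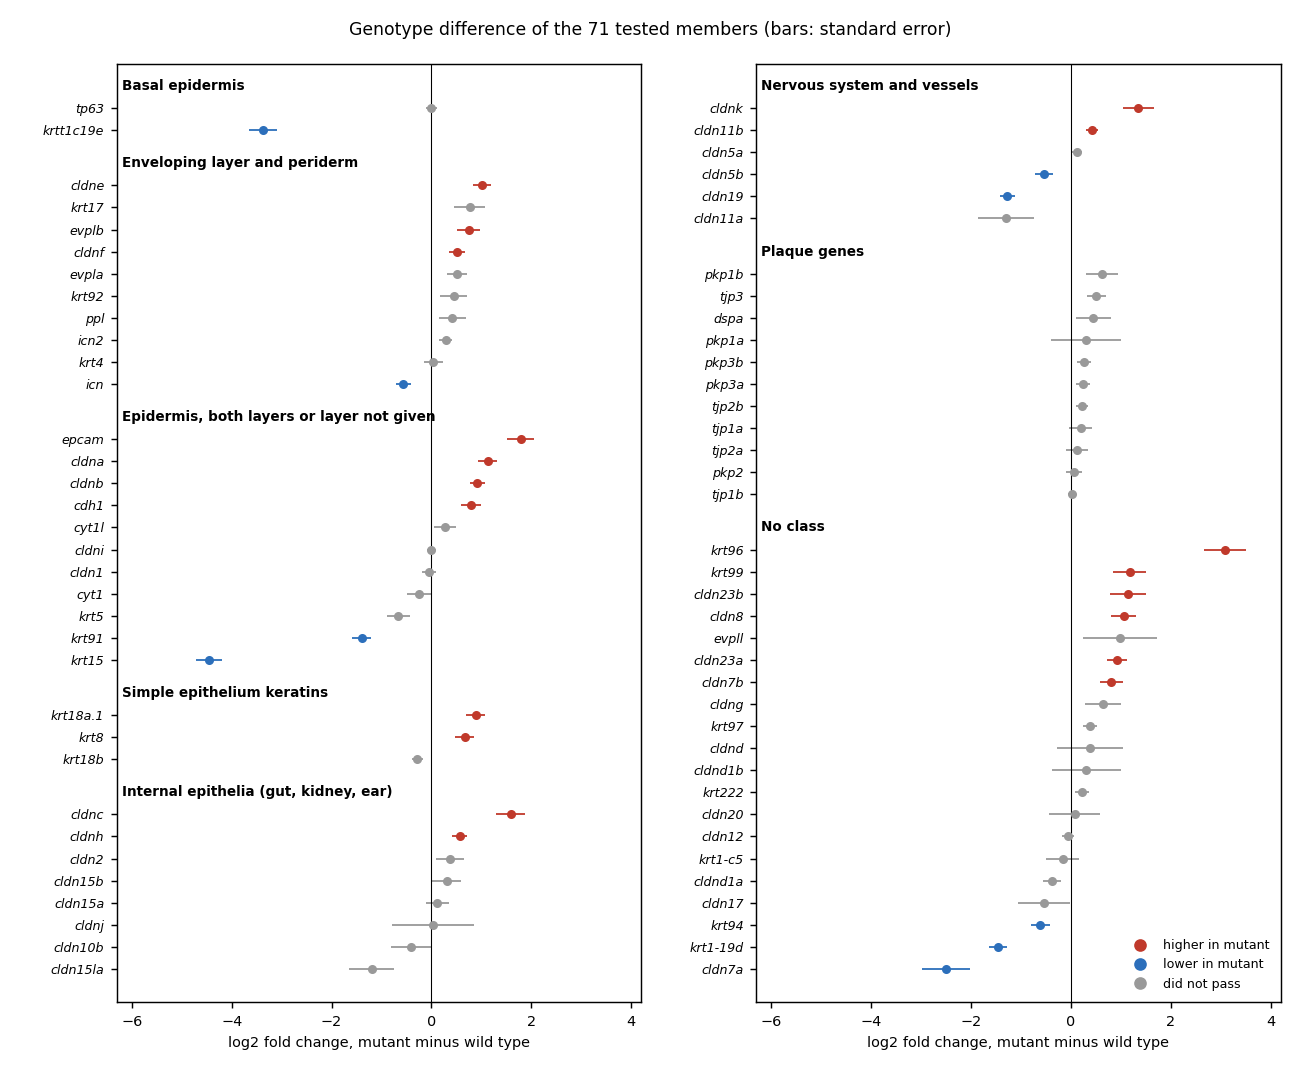
Log2 fold change (mutant minus wild type, x axis) of each of the 71 tested members, grouped by class, with bars for the standard error; red marks members higher and blue members lower in the mutant at an adjusted p under 0.05, grey those that did not pass. The lowest points are krt15 at −4.46 and krtt1c19e at −3.38, the highest is krt96 at 3.09, and no junction plaque gene passed.

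In the basal epidermis the keratin gene krtt1c19e fell, and tp63 did not pass. The type I keratin gene krtt1c19e, which marks basal keratinocytes, measured 1.85, 2.45, 1.49 and 1.5 CPM in the mutant pools, against 14.3, 14.6, 18.2 and 28.6 CPM in the wild-type pools. All mutant pools were below all wild-type pools, and the level was 10.4-fold lower in the mutant (log2 fold change −3.38, SE 0.29, adjusted p = 0.000104). tp63, whose product specifies basal keratinocytes, stood at 71.6, 68.2, 60.5 and 57.6 CPM in the mutant pools, against 64.2, 59.6, 60.8 and 73.4 CPM in the wild-type pools. Its groups overlapped and the mean levels were nearly equal (log2 fold change −0.001, SE 0.11, adjusted p = 0.996). The number of basal cells was not measured, and these values do not give it.

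The ratio of krt4 to krtt1c19e was taken within each library and compared between the genotypes. krt4, the type II keratin gene of the enveloping layer and periderm, had 13469, 11143, 8734 and 10021 CPM in the mutant pools, against 10819, 8870.5, 11223 and 11455 CPM in the wild-type pools. The groups overlapped and krt4 did not pass (log2 fold change 0.03, SE 0.19, adjusted p = 0.913). The log2 ratio of krt4 to krtt1c19e was 12.83, 12.15, 12.51 and 12.71 in the mutant pools and 9.56, 9.25, 9.27 and 8.64 in the wild-type pools. It averaged 12.55 ± 0.30 in the mutant and 9.18 ± 0.39 in wild type (SD, n = 4 each), a difference of 3.37. The exact two-sided permutation test gave p = 0.0286, the smallest that 4 against 4 pools allow. Every mutant pool lay above every wild-type pool, and the ratio does not depend on scaling between libraries. The ratio does not include tp63. With krt4 nearly equal between genotypes, it restates the difference of krtt1c19e, and its p is no separate support for that difference.

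**Figure D2:**
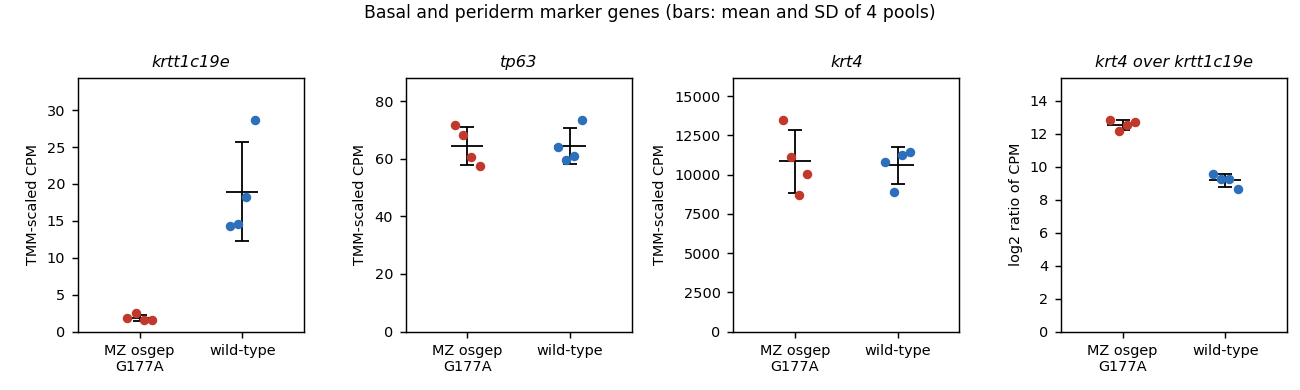
Scaled CPM of krtt1c19e, tp63 and krt4 and the log2 ratio of krt4 to krtt1c19e within each library (y axes, from 0), with points for the 4 mutant pools on the left and the 4 wild-type pools on the right of each panel and black bars for mean and SD. krtt1c19e and the ratio separate the genotypes without overlap, while tp63 and krt4 overlap.

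Periderm members had log2 fold changes between −0.56 and 1.01. Of the 10 members of this class 3 rose (cldne, evplb, cldnf) and 1 fell (icn), with a median log2 fold change of 0.48 beside 0.004 over all genes. cldne, a claudin gene of the enveloping layer, measured 203, 228, 172 and 173 CPM in the mutant pools, against 85.5, 82.8, 85.4 and 131 CPM in the wild-type pools. It rose 2.01-fold without overlap (log2 fold change 1.01, SE 0.17, adjusted p = 0.00289). evplb, one of the envoplakin genes, whose plakin proteins build the microridges of periderm cells, had 258, 380.5, 267 and 265 CPM in the mutant pools, against 135, 155, 148 and 259 CPM in the wild-type pools. Here wild-type pool 4 lay among the mutant pools (log2 fold change 0.75, SE 0.23, adjusted p = 0.0352). The neighbouring claudin gene cldnf had 28.2, 36.2, 26.3 and 24.1 CPM in the mutant pools, against 19.8, 19.1, 17.1 and 24.7 CPM in the wild-type pools, again with overlap through wild-type pool 4 (log2 fold change 0.51, SE 0.16, adjusted p = 0.0403).

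The calls of evplb and cldnf rest on most of the pools together. evplb no longer passed when any 1 of mutant pools 2, 3 and 4 and wild-type pools 1, 2 and 3 was left out (adjusted p from 0.0600 to 0.0976). The call of cldnf was lost when any 1 of mutant pools 2 and 3 and wild-type pools 1, 2 and 3 was left out (adjusted p from 0.0619 to 0.111). The related plakin genes evpla and ppl did not pass. evpla measured 140.0, 248, 166 and 161 CPM in the mutant pools, against 117, 111, 113 and 162 CPM in the wild-type pools (log2 fold change 0.51, SE 0.20, adjusted p = 0.0841). ppl, periplakin, stood at 338, 539, 362 and 334 CPM in the mutant pools, against 219, 269, 229 and 463 CPM in the wild-type pools (log2 fold change 0.41, SE 0.27, adjusted p = 0.280). In both genes 3 of the wild-type pools were below the lowest mutant pool and wild-type pool 4 was above it.

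The periderm keratin genes krt17 and krt92 showed the same arrangement of pools. krt17 had 477, 521, 326 and 400.4 CPM in the mutant pools, against 199.5, 201, 168 and 444 CPM in the wild-type pools (log2 fold change 0.77, SE 0.31, adjusted p = 0.0945). krt92 had 713, 505, 422 and 496 CPM in the mutant pools, against 361, 309.9, 288 and 611 CPM in the wild-type pools (log2 fold change 0.45, SE 0.26, adjusted p = 0.239). Without wild-type pool 4, 7 of the 10 periderm members rose and 1 fell, with krt17 (adjusted p = 0.00214), ppl (0.0232), krt92 (0.0194) and evpla (0.0316) added. The other left-out pools gave fewer. Only 1 periderm member rose without wild-type pool 1, 2 or 3 or mutant pool 2 or 3 in turn. There were 2 without mutant pool 4 and 4 without mutant pool 1. Over all genes, 7769 were called without wild-type pool 4 and 8602 without mutant pool 1. The lowest number with a pool left out was 5310, against 7225 with every pool. evpla also passed in DESeq2 (adjusted p = 0.0483), with the ribosomal covariate (0.0254) and without mutant pool 1 (0.0398). krt17 also passed in DESeq2 (adjusted p = 0.0391). With the share of ribosomal proteins as a covariate, 4 rose and 1 fell in this class. That setting called 11720 genes in all, 48.2% of them higher, against 7225 in the main fit. The part of the ribosomal share in these values was not tested.

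icn and icn2, neighbouring genes for small calcium-binding proteins of the S100 family, gave different calls. icn measured 99.5, 104, 83.5 and 83.9 CPM in the mutant pools, against 107, 131, 136 and 174 CPM in the wild-type pools. It fell 1.48-fold with the genotypes apart (log2 fold change −0.56, SE 0.15, adjusted p = 0.0230), and did not pass when any 1 of mutant pools 3 and 4 and wild-type pool 3 was left out (adjusted p from 0.0533 to 0.0711). icn2 had 109, 91.6, 78.1 and 83.4 CPM in the mutant pools, against 61.1, 76.7, 76.3 and 83.7 CPM in the wild-type pools, overlapping, and did not pass (log2 fold change 0.28, SE 0.13, adjusted p = 0.144). The difference between icn and icn2 was not tested.

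**Figure D3:**
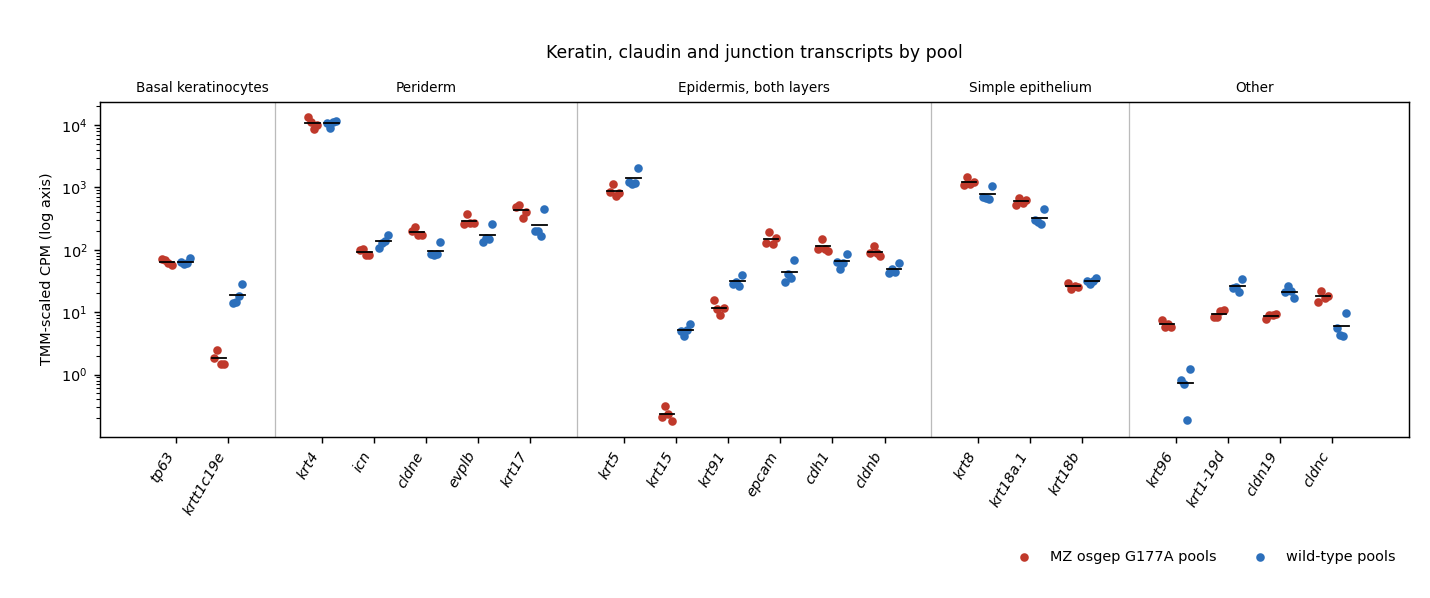
Scaled CPM (y axis, log scale) of 20 members in each pool, with red points for the 4 mutant pools left of blue points for the 4 wild-type pools and a black bar for each mean. krtt1c19e, krt15, krt91 and krt1-19d lie lower in every mutant pool, epcam, cldnb, cldne and krt96 higher in every mutant pool, and wild-type pool 4 is the top wild-type point for most periderm genes.

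Among the 11 members expressed in both skin layers, or whose layer is not given, 4 rose and 2 fell. epcam, which encodes an adhesion molecule of epithelia, measured 128, 190.2, 125 and 157 CPM in the mutant pools, against 30.3, 40.4, 35.8 and 67.9 CPM in the wild-type pools. It rose 3.44-fold and its lowest mutant pool was above its highest wild-type pool (log2 fold change 1.78, SE 0.26, adjusted p = 0.00132). cdh1, E-cadherin of adherens junctions, had 103, 151, 101 and 97.1 CPM in the mutant pools, against 64.2, 49.8, 62.3 and 85.6 CPM in the wild-type pools. This is 1.73-fold higher, without overlap (log2 fold change 0.79, SE 0.20, adjusted p = 0.0153).

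cldna had 14.4, 15.2, 19.8 and 18.3 CPM in the mutant pools, against 8.83, 7.21, 5.67 and 9.28 CPM in the wild-type pools. cldnb, whose promoter is used to label the lateral line primordium, stood at 89.2, 116, 89.6 and 80.4 CPM in the mutant pools, against 42.5, 48.6, 44.5 and 62.3 CPM in the wild-type pools. Both claudin genes rose without overlap, cldna 2.18-fold (log2 fold change 1.12, SE 0.18, adjusted p = 0.00228) and cldnb 1.89-fold (log2 fold change 0.92, SE 0.15, adjusted p = 0.00260). cldni measured 178, 167, 142 and 143 CPM in the mutant pools, against 162, 151, 161 and 157 CPM in the wild-type pools. Its pools were mixed (log2 fold change −0.002, SE 0.10, adjusted p = 0.989), as were those of cldn1, at 7.86 ± 0.973 CPM in the mutant and 8.08 ± 0.719 CPM in wild type (SD, n = 4 each; log2 fold change −0.04, SE 0.14, adjusted p = 0.853).

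The keratin genes krt15 and krt91 fell. krt15 measured 0.210, 0.312, 0.230 and 0.179 CPM in the mutant pools, against 4.98, 4.23, 5.19 and 6.38 CPM in the wild-type pools. It was 22-fold lower, with 23 counts over the mutant pools against 494 over the wild-type pools (log2 fold change −4.46, SE 0.26, adjusted p = 1.32e-05). krt91 had 15.6, 11.1, 8.92 and 11.6 CPM in the mutant pools, against 28.8, 30.2, 26.4 and 38.9 CPM in the wild-type pools. This is 2.63-fold lower, and neither gene overlapped between genotypes (log2 fold change −1.40, SE 0.19, adjusted p = 0.000983 for krt91).

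The keratin genes krt5, cyt1 and cyt1l did not pass. krt5, a type II keratin gene, measured 858, 1143, 722 and 805 CPM in the mutant pools, against 1239, 1122, 1178 and 2046 CPM in the wild-type pools. Mutant pool 2 reached the lower wild-type pools, while the other mutant pools lay below them (log2 fold change −0.66, SE 0.23, adjusted p = 0.0582), and krt5 passed without mutant pool 2 (adjusted p = 0.0379), in DESeq2's Wald test (adjusted p = 0.0199) and with the ribosomal covariate (0.0293). cyt1 and cyt1l, neighbouring type I keratin genes, had log2 fold changes of −0.25 (SE 0.23, adjusted p = 0.467) and 0.27 (SE 0.22, adjusted p = 0.389). cyt1 had 2238, 2289, 1827 and 2036 CPM in the mutant pools, against 1990.3, 2217, 1926 and 3837 CPM in the wild-type pools. cyt1l had 4936, 3185, 2695 and 3147 CPM in the mutant pools, against 2639, 2517, 2859.9 and 3567 CPM in the wild-type pools. For cyt1 the highest pool was wild-type pool 4, and for cyt1l it was mutant pool 1.

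Both partners of the simple-epithelium keratin pair rose. This class is named by background, and pools of whole embryos do not show which epithelia, the skin among them, hold these transcripts. krt8, the type II partner, had 1083, 1448, 1145 and 1213 CPM in the mutant pools, against 696, 668, 656 and 1062 CPM in the wild-type pools. krt18a.1, the type I partner, had 518, 674, 562 and 627 CPM in the mutant pools, against 297, 281, 256 and 452 CPM in the wild-type pools. Each mutant pool was above each wild-type pool, with krt8 1.59-fold higher (log2 fold change 0.67, SE 0.19, adjusted p = 0.0254) and krt18a.1 1.85-fold higher (log2 fold change 0.89, SE 0.19, adjusted p = 0.00782). The call of krt8 was lost when any 1 of mutant pools 2 and 4 and wild-type pools 1, 2 and 3 was left out (adjusted p from 0.0593 to 0.0781). The second type I copy krt18b did not rise, measuring 29.1, 23.7, 26.7 and 24.9 CPM in the mutant pools, against 31.7, 28.2, 32.1 and 35.2 CPM in the wild-type pools (log2 fold change −0.28, SE 0.11, adjusted p = 0.0713), and it passed as lower without mutant pool 1 (adjusted p = 0.0340), in DESeq2 (0.0433) and with the ribosomal covariate (0.0282). krt18a.2 had 9 counts over the mutant pools and 2 over the wild-type pools and was not tested.

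The keratin genes placed in no class held both directions. krt96 measured 7.36, 5.75, 6.47 and 5.86 CPM in the mutant pools, against 0.830, 0.705, 0.191 and 1.21 CPM in the wild-type pools. It rose 8.52-fold without overlap, with 637 counts over the mutant pools against 72 over the wild-type pools (log2 fold change 3.09, SE 0.42, adjusted p = 0.000964). krt99 had 74.4, 124, 96.9 and 93.7 CPM in the mutant pools, against 33.3, 37.4, 24.6 and 76.4 CPM in the wild-type pools. Its wild-type pool 4 lay just above the lowest mutant pool (log2 fold change 1.18, SE 0.33, adjusted p = 0.0262), and it did not pass when any 1 of mutant pools 2, 3 and 4 and wild-type pools 1, 2 and 3 was left out (adjusted p from 0.0555 to 0.0705). krt1-19d had 8.46, 8.38, 10.3 and 10.9 CPM in the mutant pools, against 24, 25.4, 21.0 and 34.5 CPM in the wild-type pools, 2.76-fold lower without overlap (log2 fold change −1.46, SE 0.18, adjusted p = 0.000519).

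krt94 had 4.04, 2.90, 3.83 and 4.25 CPM in the mutant pools, against 5.03, 4.82, 6.10 and 7.05 CPM in the wild-type pools, lower without overlap (log2 fold change −0.61, SE 0.19, adjusted p = 0.0403), and lost its call with no filter on low counts (adjusted p = 0.0520) and when any 1 of mutant pools 2, 3 and 4 and wild-type pools 1, 3 and 4 was left out (adjusted p from 0.0545 to 0.0992). krt97, at 273, 185, 188 and 215 CPM in the mutant pools, against 175, 149.6, 178 and 157 CPM in the wild-type pools, was higher in every mutant pool but did not pass (log2 fold change 0.39, SE 0.14, adjusted p = 0.0631), and it passed as higher without mutant pool 2 (adjusted p = 0.0477), in DESeq2 (0.0297) and with the ribosomal covariate (0.000338). krt222 and krt1-c5 did not pass either, with log2 fold changes of 0.22 (SE 0.14, adjusted p = 0.281) and −0.16 (SE 0.34, adjusted p = 0.754). krt93, krt95 and krt98 had 0, 3 and 9 counts over the mutant pools, against 8, 1 and 46 over the wild-type pools, and fell under the filter. Keratin genes are similar in sequence and the authors' counting divides shared reads, so the split between close copies is uncertain.

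Keratin genes that lie next to each other held calls in both directions. In the RefSeq gene order of the assembly GRCz12tu, 76 of the 80 member symbols were placed, and 33 of them stood within 5 genes of another member. The largest group ran krt1-19d, krtt1c19e, krt92, cyt1l, cyt1, krt17 and krt91. In it krt1-19d, krtt1c19e and krt91 fell, while the 4 genes between them did not pass. In the group krt93, krt94, krt98, krt15 and krt99, krt15 and krt94 fell and their neighbour krt99 rose. krt5 did not pass beside krt8 and krt18a.1, which rose. Neighbouring claudin genes rose together, with cldne, cldnf and cldna higher beside cldnj, which did not pass (log2 fold change 0.03, SE 0.82, adjusted p = 0.984), and cldnh, cldnc and cldnb higher beside cldnd, which did not pass (log2 fold change 0.38, SE 0.66, adjusted p = 0.705). This gene order is from another build than the count table and is used for neighbourhood only.

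**Figure D4:**
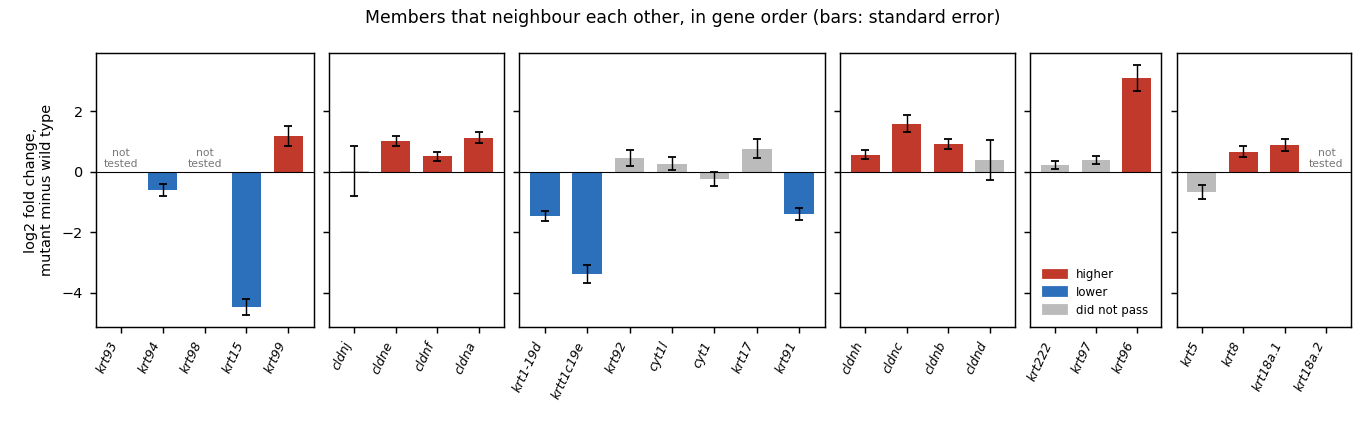
Log2 fold change (mutant minus wild type, y axis) with standard errors for the 6 groups of at least 3 members that neighbour each other, drawn in gene order without scale. krt15 at −4.46 stands next to krt99 at 1.18, and krtt1c19e at −3.38 next to krt92 at 0.45, which did not pass.

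Among the claudins of internal epithelia (gut, kidney, ear), 2 of 8 tested rows rose and none fell (3 had an unadjusted p under 0.05, and DESeq2 called 2 higher and none lower). The 2 are 25.0% of the tested rows, against 15.8% of all tested genes called higher. cldn8.2, placed here by the same background but listed under a clone name, is not in this count. It also rose and is given under other observations. The row cldn8 is not in this count either, since its symbol was not on the list for this class. That row rose too and is given with the claudins in no class. cldnc, named cldn3d in RefSeq, measured 14.5, 22.3, 16.8 and 18.3 CPM in the mutant pools, against 5.68, 4.35, 4.14 and 9.71 CPM in the wild-type pools. It rose 3.00-fold without overlap (log2 fold change 1.59, SE 0.28, adjusted p = 0.00348). cldnh, named cldn3c there, had 52.0, 51.4, 44.2 and 42.1 CPM in the mutant pools, against 31.0, 26.9, 29.2 and 41.3 CPM in the wild-type pools. The genotypes were apart by a narrow margin (log2 fold change 0.56, SE 0.15, adjusted p = 0.0192), and the call was lost when any 1 of wild-type pools 1 and 3 was left out (adjusted p from 0.0517 to 0.0606).

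Genes for claudin 15, which is needed to open a gut lumen in zebrafish, did not pass. The log2 fold change was 0.12 (SE 0.23, adjusted p = 0.743) for cldn15a, 0.30 (SE 0.28, adjusted p = 0.464) for cldn15b and −1.20 (SE 0.46, adjusted p = 0.0761) for cldn15la. cldn15b had 13.6, 6.42, 6.82 and 8.21 CPM in the mutant pools, against 8.61, 6.27, 8.57 and 4.97 CPM in the wild-type pools, with overlap, and passed as higher with the ribosomal covariate (adjusted p = 0.00407). cldn15la had few counts, 0.547, 0.312, 0.191 and 0.179 CPM in the mutant pools, against 0.961, 0.627, 0.810 and 0.431 CPM in the wild-type pools, and passed as lower without mutant pool 1 (adjusted p = 0.0212). cldn2 (log2 fold change 0.38, SE 0.28, adjusted p = 0.345) and cldn10b (log2 fold change −0.41, SE 0.39, adjusted p = 0.472) did not pass, and cldn10a, cldn10l2, cldn15lb and cldn18 had too few counts to be tested, at most 35 over the pools of a genotype. Beside these, 4 of 9 tested genes on a list of pronephros and gut markers rose, gata6, hnf1ba, foxa2 and foxa1. That is 44.4%, against 15.8% of all tested genes called higher. The pronephric cadherin gene cdh17 did not pass (log2 fold change 1.1, SE 0.43, adjusted p = 0.0857). gata6, a transcription factor gene of endoderm and heart, had 16.3, 47.5, 13 and 12 CPM in the mutant pools, against 3.80, 2.23, 2.91 and 7.28 CPM in the wild-type pools (log2 fold change 2.44, SE 0.55, adjusted p = 0.00970). hnf1ba, a kidney and gut factor gene, and foxa2, an endoderm and floor plate factor gene, had log2 fold changes of 1.00 (SE 0.22, adjusted p = 0.00923) and 0.64 (SE 0.13, adjusted p = 0.00586). The summed level of the 10 genes on this list ran from 269 to 429.8 CPM in the mutant pools and from 141 to 278 CPM in the wild-type pools, and cdx1b alone was at 0 in a pool. The part of these tissues in the claudin values was not tested.

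Claudins of the nervous system and of vessels went both ways, with 2 of 6 higher and 2 lower. cldn19 was placed in this class, and in mammals it also seals epithelia of the kidney and the eye. It measured 7.70, 9.01, 9.08 and 9.46 CPM in the mutant pools, against 20.8, 26.2, 21.6 and 16.8 CPM in the wild-type pools. It fell 2.42-fold without overlap (log2 fold change −1.28, SE 0.15, adjusted p = 0.000494). cldnk, a gene of myelinating glia, had 3.11, 2.50, 1.84 and 1.71 CPM in the mutant pools, against 1.18, 0.705, 0.619 and 1.06 CPM in the wild-type pools. At these low levels it was 2.56-fold higher, without overlap (log2 fold change 1.35, SE 0.32, adjusted p = 0.0112). cldn11b had 33.2, 28.2, 34.4 and 37.3 CPM in the mutant pools, against 25.7, 26.0, 27.3 and 20.2 CPM in the wild-type pools, apart but close (log2 fold change 0.42, SE 0.13, adjusted p = 0.0344), and did not pass with no filter on low counts (adjusted p = 0.0507) or when any 1 of mutant pools 3 and 4 and wild-type pools 1, 2, 3 and 4 was left out (adjusted p from 0.0519 to 0.0964).

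cldn5a, which in zebrafish helps seal the brain ventricles, stood at 203, 192, 234 and 222 CPM in the mutant pools, against 203, 218, 199 and 165 CPM in the wild-type pools. The pools were mixed (log2 fold change 0.12, SE 0.11, adjusted p = 0.470). cldn5b, the copy of blood vessels, had 6.19, 9.63, 11.3 and 10.1 CPM in the mutant pools, against 13.5, 13.6, 13.5 and 13.5 CPM in the wild-type pools, with every mutant pool lower (log2 fold change −0.54, SE 0.18, adjusted p = 0.0467). Its call was lost when any 1 of mutant pools 2 and 4 and wild-type pools 1, 2, 3 and 4 was left out (adjusted p from 0.0706 to 0.111), and with the size factors of DESeq2 in the same test (adjusted p = 0.0518) or with no filter on low counts (0.0665). Of 5 other vessel genes, kdrl, a receptor gene for vascular growth factor, fell (log2 fold change −0.42, SE 0.12, adjusted p = 0.0279) and lost its call when any 1 of mutant pools 3 and 4 and wild-type pools 3 and 4 was left out (adjusted p from 0.0555 to 0.0842), while cdh5, the cadherin of endothelial junctions, did not pass (log2 fold change 0.08, SE 0.15, adjusted p = 0.743). fli1a and tie1, endothelial genes next in order of p, did not pass either, with log2 fold changes of 0.29 (SE 0.14, adjusted p = 0.153) and 0.42 (SE 0.21, adjusted p = 0.161). As higher, fli1a passed without wild-type pool 4 (adjusted p = 0.0337) and tie1 without mutant pool 1 (0.0362). The summed level of the 5 ran from 109 to 144 CPM in the mutant pools and from 107 to 139 CPM in the wild-type pools. cldn11a did not pass (log2 fold change −1.30, SE 0.55, adjusted p = 0.106), and passed as lower without mutant pool 2 (adjusted p = 0.0359).

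The claudins placed in no class included 4 that rose and 1 that fell. cldn23a measured 23.5, 34.5, 22.1 and 20.7 CPM in the mutant pools, against 11.6, 12.6, 11.5 and 17.2 CPM in the wild-type pools, higher in every mutant pool (log2 fold change 0.93, SE 0.20, adjusted p = 0.00827). cldn8 had 5.55, 9.72, 6.09 and 5.39 CPM in the mutant pools, against 2.97, 2.94, 2.67 and 4.27 CPM in the wild-type pools, also without overlap (log2 fold change 1.05, SE 0.25, adjusted p = 0.0120). cldn7b had 75.7, 149, 111 and 104 CPM in the mutant pools, against 51.7, 58.3, 51.5 and 88.5 CPM in the wild-type pools, overlapping through wild-type pool 4 (log2 fold change 0.81, SE 0.24, adjusted p = 0.0305). Its copy cldn7a went the other way, at 0.0842, 0.178, 0.230 and 0.0714 CPM in the mutant pools, against 0.830, 0.627, 1.24 and 0.587 CPM in the wild-type pools, with 14 counts over the mutant pools against 76 over the wild-type pools (log2 fold change −2.50, SE 0.47, adjusted p = 0.00437). Claudin 7 is widespread in mammalian epithelia, and the difference between both copies was not tested.

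cldn23b rose at low levels, with 2.99, 2.85, 1.68 and 1.57 CPM in the mutant pools, against 0.699, 0.822, 0.905 and 1.64 CPM in the wild-type pools (log2 fold change 1.15, SE 0.36, adjusted p = 0.0397). It lost its call when any 1 of mutant pools 1, 2 and 3 and wild-type pools 1, 2 and 3 was left out (adjusted p from 0.0501 to 0.101), and cldn7b lost its call when any 1 of mutant pools 2, 3 and 4 and wild-type pools 1, 2 and 3 was left out (adjusted p from 0.0607 to 0.0860). The remaining rows did not pass. The log2 fold change was −0.06 (SE 0.12, adjusted p = 0.753) for cldn12, 0.65 (SE 0.36, adjusted p = 0.206) for cldng, −0.53 (SE 0.52, adjusted p = 0.481) for cldn17 and 0.08 (SE 0.51, adjusted p = 0.924) for cldn20. The claudin domain genes cldnd1a and cldnd1b had −0.38 (SE 0.19, adjusted p = 0.155) and 0.31 (SE 0.70, adjusted p = 0.774), and cldnd1a passed as lower without wild-type pool 4 (adjusted p = 0.0498). cldnd1b ranged from 1.94 to 16.8 CPM within the mutant and from 3.10 to 18.5 CPM within wild type. evpll, an envoplakin-like gene, did not pass (log2 fold change 0.98, SE 0.74, adjusted p = 0.353) and passed as higher without wild-type pool 4 (adjusted p = 0.0303). cldn34a had 13 counts over the mutant pools and 26 over the wild-type pools and was not tested.

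Genes of the junction plaque gave no call. None of the 11 tested desmoplakin, plakophilin and zonula occludens rows passed in edgeR's quasi-likelihood test, with 1 at an unadjusted p under 0.05 (tjp3), and DESeq2 called 1, also tjp3. Their log2 fold changes ran from 0.02 to 0.62 with a median of 0.24. dspa, desmoplakin, which ties keratin filaments to desmosomes, measured 67.6, 176, 119 and 109 CPM in the mutant pools, against 57.3, 76.9, 65.3 and 146 CPM in the wild-type pools. Its range within each genotype was wider than the difference (log2 fold change 0.45, SE 0.35, adjusted p = 0.378). tjp3 had 64.2, 70.9, 50.4 and 51.7 CPM in the mutant pools, against 37.6, 33.6, 37.8 and 57.3 CPM in the wild-type pools, and wild-type pool 4 lay among the mutant pools (log2 fold change 0.51, SE 0.19, adjusted p = 0.0690).

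Wild-type pool 4 was the highest wild-type pool in all 11 tested plaque rows, against 8212 of all 22467 tested genes. Without it 3 rose, pkp1b (adjusted p = 0.00645), tjp3 (0.00744) and tjp2b (0.0365), where 7769 genes were called in all. No plaque row passed when any other pool was left out. With every pool kept, no plaque row passed in the main fit or with the share of ribosomal proteins as a covariate. The covariate was not fitted with wild-type pool 4 left out. The part of the lower ribosomal share of wild-type pool 4 in these levels was not tested. tjp1a, one of the genes for zonula occludens 1, had 71.3, 145, 115 and 104 CPM in the mutant pools, against 78.9, 92.3, 79.3 and 128 CPM in the wild-type pools, mixed between genotypes (log2 fold change 0.20, SE 0.23, adjusted p = 0.557). tjp1b had 169.9, 187, 186 and 185 CPM in the mutant pools, against 179, 177.1, 171 and 191 CPM in the wild-type pools (log2 fold change 0.02, SE 0.08, adjusted p = 0.874). The SE of tjp1b bounds its difference more tightly than that of any other plaque row. The plakophilin genes pkp3a and pkp2 had log2 fold changes of 0.24 (SE 0.15, adjusted p = 0.252) and 0.06 (SE 0.16, adjusted p = 0.806), and pkp1a appeared in a pair of rows that share an Ensembl identifier, of which the smaller was not tested.

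**Figure D5:**
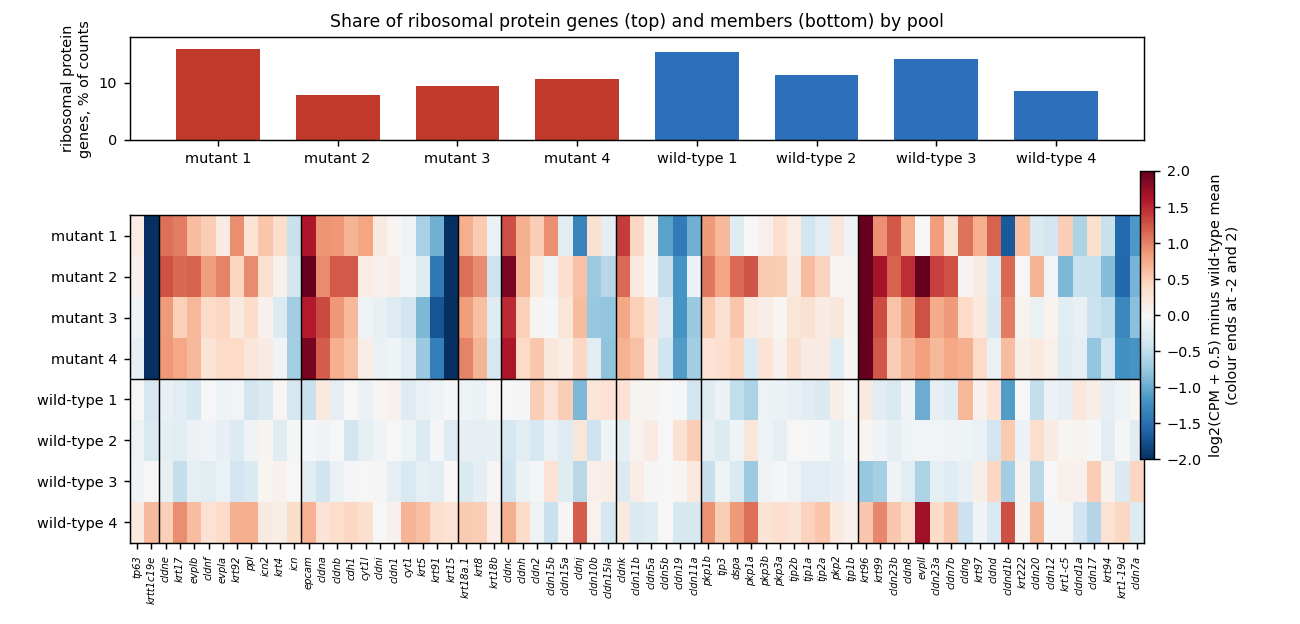
Share of counts in ribosomal protein genes (top, percent, bars from 0) and log2 level of the 71 tested members relative to their wild-type mean (bottom, red higher, blue lower, colour ends at −2 and 2), with the 4 mutant pools left of the wild-type pools in the bars and above them in the map. Wild-type pool 4, with a ribosomal share of 8.64%, is red across most periderm and plaque genes, while the epcam, krtt1c19e and krt15 columns separate the genotypes in every pool.

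The partners of these members were read from lists of other junction and skin genes. Of 18 tested tight junction and polarity genes 5 rose and 1 fell, or 33.3% against the background of 32.2%. The 5 are 27.8%, against 15.8% of all tested genes called higher, and the 1 is 5.56%, against 16.3% called lower. oclnb, an occludin gene, had 40.2, 51.3, 33.6 and 34.1 CPM in the mutant pools, against 17.3, 16.8, 17.8 and 24.9 CPM in the wild-type pools, higher in every mutant pool (log2 fold change 1.05, SE 0.18, adjusted p = 0.00300). marveld2b, a tricellulin gene for corners where cells meet, had 12, 20.1, 14.2 and 12.6 CPM in the mutant pools, against 5.68, 4.86, 7.91 and 9.83 CPM in the wild-type pools (log2 fold change 1.05, SE 0.26, adjusted p = 0.0143). f11r.2, a junctional adhesion molecule gene, fell at low levels, with 44 counts over the mutant pools against 161 over the wild-type pools (log2 fold change −1.88, SE 0.50, adjusted p = 0.0208). It lost its call when any 1 of mutant pools 3 and 4 was left out (adjusted p from 0.0570 to 0.0637). The related gene f11r.1, at a mean of 73.7 CPM in the mutant and 46.5 CPM in wild type, rose with overlap (log2 fold change 0.664, SE 0.205, adjusted p = 0.0369). Of 13 adherens junction and desmosome partners 1 rose, the desmocollin gene dsc2l (log2 fold change 0.75, SE 0.18, adjusted p = 0.0125), and 1 fell, vcla, a vinculin gene. vcla had 7.03, 8.79, 8.08 and 7.71 CPM in the mutant pools, against 22.7, 38.8, 30.0 and 38.9 CPM in the wild-type pools (log2 fold change −2.04, SE 0.19, adjusted p = 0.000141). The other vinculin gene on this list, vclb, stood at a mean of 88.4 CPM in the mutant and 93.9 CPM in wild type. Its groups overlapped and it did not pass (log2 fold change −0.086, SE 0.122, adjusted p = 0.638). Vinculin also acts at muscle attachment sites, and the muscle actin gene given above moved with vcla. The part of muscle in the value of vcla was not tested. nectin1b, a nectin gene, did not pass (log2 fold change 0.47, SE 0.19, adjusted p = 0.0915). It passed as higher with a replicate block (adjusted p = 0.044), with the ribosomal covariate (0.0178) and without mutant pool 1 (0.00182).

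At the base of the skin, 3 of 12 tested hemidesmosome and basement membrane genes rose and 2 fell, cd151 and the collagen gene col17a1b. That is 25.0% higher and 16.7% lower, against 15.8% and 16.3% of all tested genes. col17a1b was at low levels, with 14 counts over the mutant pools against 72 over the wild-type pools. Its copy col17a1a did not pass (log2 fold change −0.173, SE 0.397, adjusted p = 0.781). itga6a, an integrin gene, had 108, 157, 140.2 and 145 CPM in the mutant pools, against 71.5, 73.3, 71.2 and 80.4 CPM in the wild-type pools (log2 fold change 0.89, SE 0.12, adjusted p = 0.000952). fermt1, kindlin 1, which activates integrins, had 35.3, 59.7, 40.0 and 41.7 CPM in the mutant pools, against 14.7, 16.5, 14.2 and 26.1 CPM in the wild-type pools (log2 fold change 1.30, SE 0.24, adjusted p = 0.00374). Both were higher in every mutant pool. The other gene that rose, lama5, overlapped, with mutant pool 1 at 212 CPM and wild-type pool 4 at 222 CPM (log2 fold change 1.16, SE 0.28, adjusted p = 0.0129). cd151, a tetraspanin gene, had 7.83, 8.79, 9.99 and 12.7 CPM in the mutant pools, against 23.6, 25.3, 22.2 and 22 CPM in the wild-type pools, lower in every mutant pool (log2 fold change −1.24, SE 0.16, adjusted p = 0.000689). itgb4, the other subunit of the hemidesmosome integrin, did not pass (log2 fold change −0.02, SE 0.34, adjusted p = 0.976).

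Of 15 transcription factor genes listed by background as epidermal regulators, 6 rose and the other 9 did not pass. Pools of whole embryos do not show in which tissue each of them is expressed. The 6 are 40.0%, against 15.8% of all tested genes called higher. ovol1a, a zinc finger factor of epithelial differentiation, had 18.6, 28.3, 22.9 and 19.3 CPM in the mutant pools, against 6.64, 6.23, 8.48 and 10.7 CPM in the wild-type pools (log2 fold change 1.48, SE 0.21, adjusted p = 0.00119). znf750, an epidermal differentiation factor in mammals, had 18.3, 22.3, 14.9 and 15.2 CPM in the mutant pools, against 7.95, 6.42, 8.72 and 11.1 CPM in the wild-type pools (log2 fold change 1.05, SE 0.20, adjusted p = 0.00475). Both separated the genotypes without overlap, as did klf2a (log2 fold change 0.63, SE 0.13, adjusted p = 0.00701). The copies ovol1b (log2 fold change 0.103, SE 0.215, adjusted p = 0.758) and klf2b (log2 fold change −0.214, SE 0.125, adjusted p = 0.230) did not pass. klf2b averaged 26.5 CPM in the mutant and 30.8 CPM in wild type, against 10.1 and 6.51 CPM for klf2a. tfap2a, of early ectoderm, did not pass (log2 fold change 0.14, SE 0.09, adjusted p = 0.267). Of 5 surface proteases and inhibitors 3 rose, st14b, spint2 and st14a, and st14b, a matriptase gene, had 34.3, 37.6, 26.0 and 26.0 CPM in the mutant pools, against 15.9, 14.8, 15.4 and 19.1 CPM in the wild-type pools (log2 fold change 0.92, SE 0.15, adjusted p = 0.00253). spint2 lost its call when any 1 of mutant pool 2 and wild-type pools 1, 2 and 3 was left out (adjusted p from 0.0530 to 0.0650), and st14a when any 1 of wild-type pools 1, 2 and 3 was left out (adjusted p from 0.0649 to 0.0740).

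Other periderm genes and ionocyte genes held calls in both directions. Of 5 further periderm genes 2 rose, agr1 and anxa1c, and 1 fell. That is 40.0% higher and 20.0% lower, against 15.8% and 16.3% of all tested genes. anxa1c lost its call when any 1 of mutant pools 1, 2 and 4 and wild-type pools 1, 2 and 3 was left out (adjusted p from 0.0661 to 0.115). agr1 had 192, 158, 130.2 and 153 CPM in the mutant pools, against 95.3, 97.8, 97.6 and 97.8 CPM in the wild-type pools, higher in every mutant pool (log2 fold change 0.70, SE 0.12, adjusted p = 0.00239). anxa1b, an annexin gene, had 33.8, 49.3, 33.0 and 38.6 CPM in the mutant pools, against 107, 101, 107 and 163 CPM in the wild-type pools, lower in every mutant pool (log2 fold change −1.63, SE 0.19, adjusted p = 0.000490). Of 8 tested genes of ionocytes, the ion-transporting cells of the skin, 1 rose (ca2) and 1 fell (atp1b1b). Each is 12.5%, below the 15.8% of all tested genes called higher and the 16.3% called lower. The ionocyte regulator gene foxi3a did not pass (log2 fold change 0.12, SE 0.37, adjusted p = 0.845). trpv6, the epithelial calcium channel gene, was lower in every mutant pool but did not pass (log2 fold change −1.56, SE 0.66, adjusted p = 0.104), and it passed as lower without mutant pool 1 (adjusted p = 0.033). It was at low levels, with 46 counts over the mutant pools against 135 over the wild-type pools. Mutant pool 1, at 0.968 CPM, lay just under wild-type pool 2, at 0.979 CPM. atp1b1b, a sodium pump subunit gene, had 8.50, 21.7, 7.43 and 8.46 CPM in the mutant pools, against 25.9, 30.4, 32.5 and 61.9 CPM in the wild-type pools (log2 fold change −1.71, SE 0.41, adjusted p = 0.0133). ca2, a carbonic anhydrase gene, lost its call when any 1 of mutant pools 2 and 4 and wild-type pools 1, 2 and 3 was left out (adjusted p from 0.0516 to 0.0931).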

How the data were processed

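Total RNA of pooled embryos was sequenced in bulk. The values are expected counts per gene, deposited by the authors; the submitters' processing notes name Trimmomatic, STAR 2.7, RSEM and the build danRer11. For annotation and strand setting the sources used here give nothing. RSEM divides reads shared by similar genes, so overlapping and near-identical genes are uncertain. Expected counts were rounded. Genes passing filterByExpr were fitted with edgeR 4.0.16 (R 4.3.3; TMM, robust quasi-likelihood test), with 4 mutant and 4 wild-type pools, no covariate, and Benjamini-Hochberg adjustment over 22467 genes at 0.05. The standard error is the absolute log2 fold change over the root of F. The krt4 ratio was tested with an exact permutation test (scipy 1.17.1). Alternatives were other size factors, filters, a replicate block, a ribosomal covariate, DESeq2 1.42.0 and left-out pools. The test was checked on simulated data. Replicates of a genotype differed beyond sampling noise (chi-square over its degrees of freedom at least 5.8).

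The members, classes and lists were chosen with earlier results of these data known. Values per pool are given for fixed anchor genes, for up to 4 members per class and direction with the smallest p past the threshold and for up to 3 highest per class. Genes that are no members are named for the 3 smallest p of each list. Others with values per pool, and list genes beyond those 3 (such as foxi3a, cdh5, itgb4, tfap2a and cdh17), were chosen after their values were seen. RefSeq gene order (GRCz12tu) was used for neighbourhood.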

Additional observations from a re-analysis of the deposited data

Results flagged for a closer look

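Of 142 groups of 4 pools (71 tested members in each genotype), 16 held a pool far from the other 3 by Dixon's criterion. Its rate of about 1 in 20 holds for independent groups. These members were measured in the same pools, so that rate is no background for the 16. Of the 16, 9 were in wild-type pool 4. krt5 reached 2046 CPM there against 1122 to 1239 CPM in the other wild-type pools, and cyt1 reached 3837 CPM against 1926 to 2217 CPM. krt8 stood at 1062 CPM, against 656 to 696 CPM in the other wild-type pools, and krt17 at 444 CPM, against 168 to 201 CPM. Among junction genes, cldne had 131 CPM against 82.8 to 85.5 CPM, evpla 162 CPM against 111 to 117 CPM, and evplb 259 CPM against 135 to 155 CPM. The plakophilin genes pkp1b and pkp3b had 26.6 and 17.7 CPM there, against highest levels of 12.1 and 13.9 CPM in the other wild-type pools.

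In mutant pool 2, evplb had 380.5 CPM against 258 to 267 CPM in the other mutant pools, and ppl had 539 CPM against 334 to 362 CPM. cdh1 had 151 CPM in that pool, against 97.1 to 103 CPM, and cldn8 had 9.72 CPM, against 5.39 to 6.09 CPM. In mutant pool 1, cldnd had 1.89 CPM against 0.345 to 0.464 CPM in the other mutant pools, and krt222 had 38.0 CPM against 24.8 to 27 CPM. tjp1b was low in mutant pool 1, at 169.9 CPM against 185 to 187 CPM.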

How the results depend on the processing

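Leaving out each pool in turn gave 11 to 26 members higher and 6 to 11 lower, and 5310 to 8602 changed genes in all. The lowest counts of higher members, 11, 12 and 11, came without wild-type pools 1, 2 and 3. Of the 28 calls, 17 held under every alternative in which the gene was tested (11 higher, 6 lower), and cldn7a was not tested at a minimum of 1 CPM in 4 libraries. The other 11 calls were lost when pools were left out, with values beside each gene. Of these, cldn11b, krt94 and cldn5b were lost also with no filter on low counts, and cldn5b with the size factors of DESeq2. No called member reversed its sign. With the share of ribosomal proteins as a covariate, 24 members were higher and 13 lower, and 11720 genes changed, against 7225. The covariate added cldn15b, cldng, evpla, krt222 and krt97 as higher and cldn11a, cldn15la, krt18b and krt5 as lower. DESeq2's Wald test gave 23 higher and 11 lower members, and 8439 genes changed. It added evpla, krt17, krt97 and tjp3 as higher and krt18b and krt5 as lower. The log2 ratio of krt4 to krtt1c19e differed by 3.19 to 3.5 when a pool was left out, where the exact permutation p cannot fall below 0.0571. With a pseudocount of 1 CPM the difference was 2.80. Class counts with pools left out and with the covariate were chosen after seeing the data.

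The labels number the pools 1 to 4 in both genotypes. Deviations from the genotype means correlated at 0.651, 0.169, −0.266 and 0.09 between pools of the same number, and not every pool correlated best with its own number. The labels do not say whether pools of the same number belong together, and these correlations do not settle it. With the replicate number as a block, 17 members were higher and 10 lower, and 7193 genes changed. That fit did not call cldn11b (edgeR adjusted p = 0.0629), cldn23b (0.0739), cldnf (0.057) or, outside the members, anxa1c (0.081), and it added cldn11a as lower (0.0468) and krt17 as higher (0.0444). The ratio's difference stayed at 3.37 under the replicate block, with an exact permutation p of 0.125, the smallest that 4 pairs allow. Summing keratin or claudin rows whose proteins are nearly identical was not run, since no protein sequences were used here. Depth limits the low rows: 10 members had too few counts to be tested.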

Other observations

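Another 8 rows of the table carry clone names that the reference pairs with claudin symbols, so the symbol rule did not take them. Of the 5 tested, 2 rose. cldn8.2 averaged 29.7 ± 6.11 CPM in the mutant and 16.6 ± 3.09 CPM in wild type (SD, n = 4 each), without overlap, with a log2 fold change of 0.84 and an adjusted p = 0.00846 in edgeR's quasi-likelihood test. cldn23l averaged 1.82 ± 0.787 CPM in the mutant and 0.568 ± 0.390 CPM in wild type, with overlap, and had a log2 fold change of 1.68 with an adjusted p = 0.0344 in edgeR's test. cldn26, cldn29 and cldn30 did not pass. By background cldn8.2 and the untested cldn10d and cldn10e belong to the internal epithelia, and the count of that class leaves them out.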
